A study of Mus musculus with 2 samples.

Results

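Tcf7, Lef1, Satb1, Tox, Eomes, Tbx21, Prdm1, Bhlhe40, Id2 and Id3 encode 10 transcription regulators that set the fate of T cells and NK cells. They were taken by gene symbol, and all 10 were among the 32285 genes of each of 2 single-cell count matrices. The cells came from subcutaneous MC38 tumors, a mouse colon carcinoma line, grown either in Lmo7+/+ hosts or in Lmo7-/- hosts, and live cells were sorted before droplet capture. The deletion was carried by the cells of the host, the implanted tumor cells were Lmo7 wild-type, and each genotype gave 1 library. The number of mice behind each library was not named in the sources used here.

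T cell fate is held by opposing regulators. Tcf7 (which encodes TCF1) and Lef1 are high-mobility-group factors of the Wnt pathway that keep naive, memory and stem-like T cells, and Satb1 is a chromatin organizer of thymocytes and resting T cells. Tox is tied to the exhausted state of CD8 T cells in tumors and chronic infection, and the T-box factors Eomes and Tbx21 (T-bet) drive cytotoxic programs in CD8 T cells and NK cells. Prdm1 (Blimp-1) represses memory genes in effector and regulatory T cells, Bhlhe40 supports cytokine output and tissue residence, and Id2 and Id3 inhibit E proteins, with Id2 favouring effector and innate lymphocytes and Id3 memory precursors.

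The library labelled Lmo7+/+ held 98582479 UMIs (unique molecules) in 16208 droplets and the library labelled Lmo7-/- 80648345 UMIs in 15163 droplets, and 13542 and 11860 droplets passed the filters on cells. The 2 barcode lists had 279 barcodes in common, which included 9 and 16 of the lymphocytes named below. Clusters were built without the 10 genes and were named from marker genes, so each name carries "-like". The lymphocytes with a name numbered 516 and 670. They comprised 277 and 430 CD8 T-like cells, 67 and 82 memory T-like cells, 66 and 77 Treg-like (Foxp3-positive regulatory T cell) cells, 31 and 33 Il17a T-like cells, and 75 and 48 NK-like cells. CD8 T-like cells fell into resting (141 and 217), granzyme (40 and 75) and cycling (96 and 138) clusters. The granzyme cluster was named from Gzmg, Gzme, Gzmd and Gzmf among its leading genes. Another 57 and 59 cells of the lymphocyte cluster stayed unnamed. Cd8a was at 1156 and 1278 CPM (the counts of a gene over the summed UMIs of a class, scaled to a fixed total) in CD8 T-like cells and at 0 in NK-like cells of both libraries, and Foxp3 was at 718 and 736 CPM in Treg-like cells. The memory T-like cells were shallow, with medians of 1603 and 1385 UMIs, and had the markers S1pr1 and Ly6c2 among their 10 leading genes. There, 15 naive and memory genes summed to 2139 and 2820 CPM, beside 1330 and 1114 CPM in resting CD8 T-like cells. The same list was at 3347 and 2891 CPM in granzyme CD8 T-like and 2242 and 3086 CPM in NK-like cells. Effector genes (16) summed to 9526 and 7198 CPM, beside 5958 and 8273 CPM in resting and 3852 and 7264 CPM in granzyme CD8 T-like cells. The name rests on the marker list, and these sums do not set the cluster apart as memory cells. Lmo7 itself gave 2 and 1 counts in all T-like cells and 37.1 against 29.5 CPM in endothelial-like cells, with overlapping intervals. In tumor cell-like cells it was at 13.9 CPM (11.7 to 16.4) and 8.03 CPM (6.54 to 9.75), intervals that did not overlap. The implanted tumor cells were Lmo7 wild-type in both libraries. Which library is which genotype is therefore known from the labels alone.

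With 1 library for each genotype no test between genotypes was possible and no p-value is given. Levels are CPM with exact Poisson 95% intervals, and ratios are log2 of the CPM in the library labelled Lmo7-/- over that labelled Lmo7+/+, with the exact 95% interval that the split of counts allows. All intervals cover counting error only and leave out variation between mice, tumors and captures.

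Upstream sequence is shown for Lef1, Satb1, Eomes and Tbx21, members that were highest in memory T-like or NK-like cells in both libraries. RefSeq (GRCm38.p6) gave an entry for 8 of the 10 genes. Each line below is the 250 bases before the RefSeq start, read 5′ to 3′ on the strand of the gene, with the core motif of TCF/LEF factors (CAAAG, or CTTTG where it lies on the other strand) in capitals.
Lef1, chr3:131110047-131110296, plus strand: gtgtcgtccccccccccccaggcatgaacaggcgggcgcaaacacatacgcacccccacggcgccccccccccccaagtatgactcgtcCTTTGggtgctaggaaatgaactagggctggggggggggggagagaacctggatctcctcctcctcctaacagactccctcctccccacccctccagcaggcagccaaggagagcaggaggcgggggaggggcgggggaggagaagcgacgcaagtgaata
Satb1, chr17:51833291-51833540, minus strand: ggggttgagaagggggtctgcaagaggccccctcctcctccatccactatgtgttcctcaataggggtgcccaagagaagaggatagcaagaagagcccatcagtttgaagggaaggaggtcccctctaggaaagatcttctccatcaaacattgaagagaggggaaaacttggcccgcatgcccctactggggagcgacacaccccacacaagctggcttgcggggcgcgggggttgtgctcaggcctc
Eomes, chr9:118477939-118478188, plus strand: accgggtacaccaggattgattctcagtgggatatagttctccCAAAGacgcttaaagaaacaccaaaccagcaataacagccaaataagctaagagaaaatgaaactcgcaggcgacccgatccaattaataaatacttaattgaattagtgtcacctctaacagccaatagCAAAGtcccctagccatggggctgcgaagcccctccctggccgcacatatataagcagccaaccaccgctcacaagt
Tbx21, chr11:97115332-97115581, minus strand: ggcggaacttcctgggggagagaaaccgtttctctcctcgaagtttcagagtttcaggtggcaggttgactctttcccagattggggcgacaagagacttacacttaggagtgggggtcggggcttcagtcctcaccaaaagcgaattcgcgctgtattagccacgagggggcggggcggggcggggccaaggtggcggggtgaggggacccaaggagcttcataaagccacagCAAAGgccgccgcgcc
The Lef1 window held 1 such core, 161 bases before the start, the Eomes window held 2, at 207 and 77 bases, and the Tbx21 window held 1, at 16 bases. The Satb1 window held 0 on either strand. This short motif was found in 48.6% of 32851 windows of the same length. A T-box half-site (GGTGTGA, in 3.33% of windows), the E-box that Bhlhe40 binds (CACGTG, 6.02%) and a Prdm1 core (GAAAGTG, 4.01%) had 0 matches in these 4 windows on both strands. The letters describe the windows and do not show binding. GC content was 66.4% for Lef1, 58.0% for Satb1, 46.4% for Eomes and 60.8% for Tbx21.

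**Figure D1:**
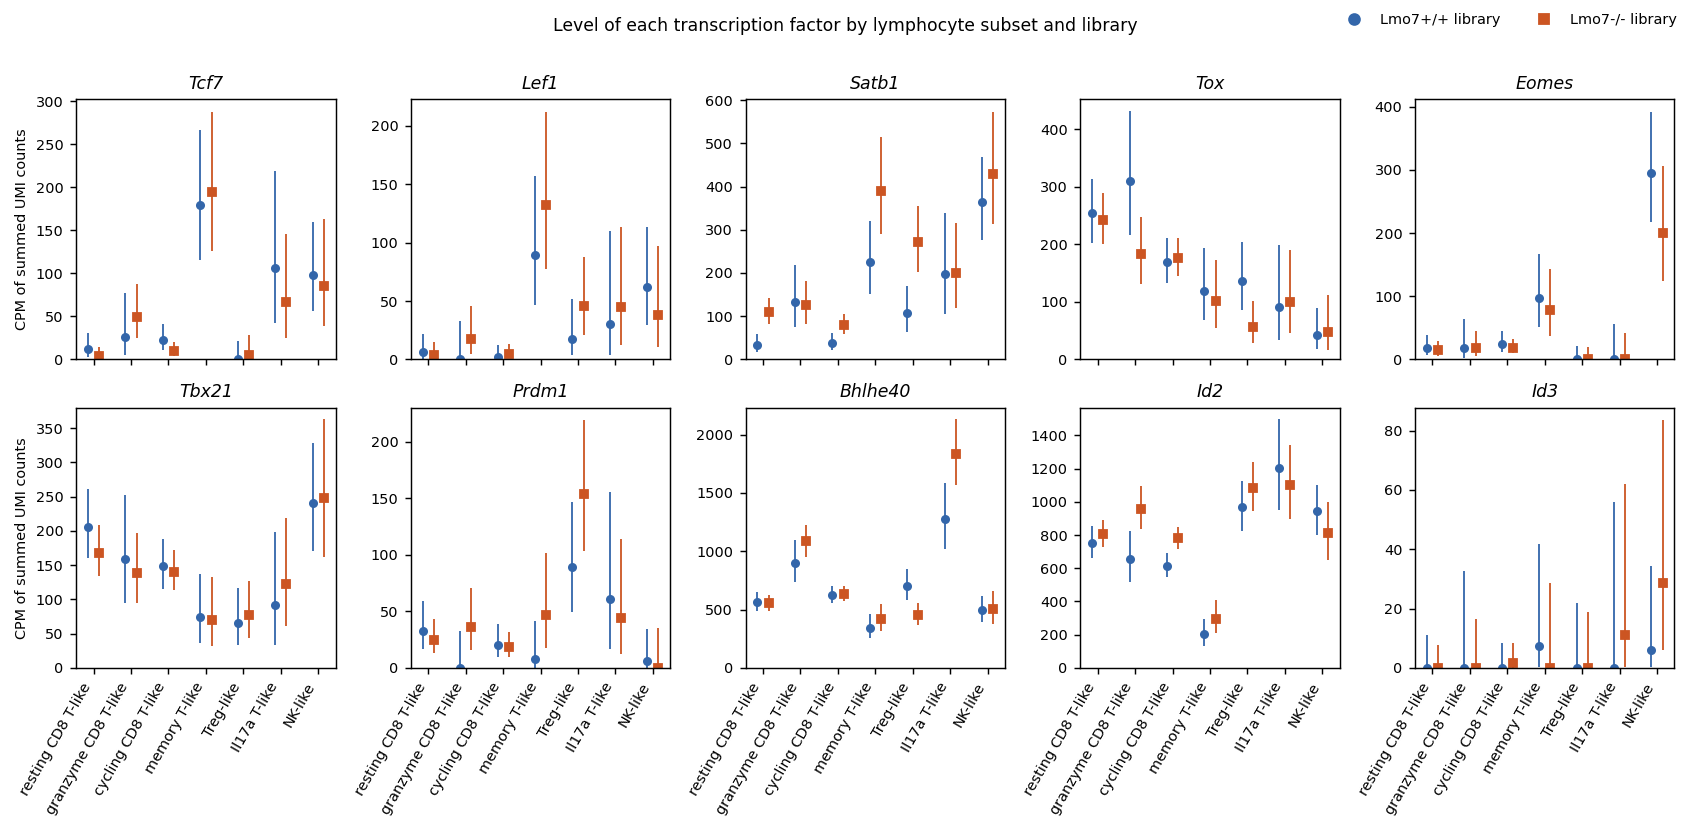
Level of each of the 10 genes (CPM of summed UMI counts, linear axis from 0, a separate scale for each gene) in the 7 lymphocyte subsets. Circles are the Lmo7+/+ library, squares the Lmo7-/- library and bars exact Poisson 95% intervals. Tcf7 and Lef1 peak in memory T-like cells, Eomes in NK-like cells and Bhlhe40 in Il17a T-like cells in both libraries. The Il17a T-like cluster also had Cd4 among its leading genes.

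Tcf7, Lef1 and Satb1, the regulators of the naive and memory state, were low in CD8 T-like clusters and high in memory T-like and NK-like cells. For 8 of the 10 genes the subset with the highest level was the same in both libraries, the exceptions being Tox and Id3. The share of all genes with such agreement was not taken, so this count only describes the 10 genes. The named peak of Eomes and Prdm1 held under 11 of 11 alternatives, that of Satb1 under 10, Tbx21 under 9, Tcf7, Lef1 and Bhlhe40 under 8 each and Id2 under 5. The Il17a T-like cluster fell under 20 cells in a library in 3 of these alternatives, and no memory T-like cluster was named in 2. At resolution 0.6, 1 of those 2, the NK-like cluster held 141 and 128 cells beside 75 and 48. Of the 60 steps between neighbours in the order of subsets, 5 were apart by counting error in both libraries, and most neighbours could therefore not be told apart. The plot of levels by subset shows these orders.

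Tcf7 (chromosome 11, 52252371 to 52283014, minus strand, GRCm38) was highest in memory T-like cells, at 179 CPM in the library labelled Lmo7+/+ and 195 CPM in the library labelled Lmo7-/-. NK-like cells followed at 98.6 and 85.7 CPM and Il17a T-like cells at 106 and 66.7 CPM. Granzyme CD8 T-like cells held 26.6 and 49.1 CPM, cycling ones 22.5 and 9.15 CPM and resting ones 12.0 and 4.10 CPM, on 2 to 11 counts each. Treg-like cells gave 0 counts and 1 count. The level of Tcf7 was thus highest in memory T-like (24 and 25 counts), NK-like (16 and 9) and Il17a T-like cells (7 and 6). The larger CD8 T-like class held 17 and 19 counts, at 19.1 and 13.9 CPM. Among memory T-like cells with a Cd8a or Cd8b1 UMI and no Cd4 UMI (32 and 48 cells), Tcf7 was at 67.9 and 163 CPM.

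Lef1 (chromosome 3, 131110471 to 131224356, plus strand), the partner of TCF1, had the same leading subset, with 89.7 and 132 CPM in memory T-like cells. NK-like cells held 61.6 and 38.1 CPM, Il17a T-like cells 30.4 and 44.5 CPM and Treg-like cells 17.8 and 46.0 CPM. The 3 CD8 T-like clusters lay between 0 and 17.9 CPM in both libraries. Across the 14 profiles of 7 subsets in 2 libraries, the log2 levels of Lef1 and Tcf7 had a Pearson r of 0.70, those of Lef1 and Satb1 0.81 and those of Tcf7 and Satb1 0.61. These profiles share libraries and depth, and the values are descriptions.

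Satb1 (chromosome 17, 51736187 to 51833290, minus strand) was highest in NK-like cells, at 363 and 429 CPM, and next in memory T-like cells, at 224 and 390 CPM. Il17a T-like cells held 198 and 200 CPM, Treg-like cells 107 and 271 CPM and granzyme CD8 T-like cells 133 and 125 CPM. Resting CD8 T-like cells (32.9 and 109 CPM) and cycling ones (38.2 and 79.3 CPM) had the lowest levels. The order of the lower subsets differed between the libraries.

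Tox, the regulator of exhausted CD8 T cells, was higher in the CD8 T-like clusters than in the other subsets. Tox (chromosome 4, 6686353 to 6991557, minus strand) was at 254 and 242 CPM in resting, 310 and 183 CPM in granzyme and 169 and 175 CPM in cycling CD8 T-like cells. It was lower in memory T-like (120 and 101 CPM), Treg-like (136 and 56.3 CPM) and Il17a T-like cells (6 and 9 counts), and lowest in NK-like cells, at 43.1 and 47.6 CPM. Over the 14 profiles its Pearson r was -0.77 with Satb1, -0.74 with Lef1 and a weaker -0.43 with Tcf7.

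Of the T-box factors, Eomes separated NK-like cells from the T cell subsets beyond counting error. Tbx21 did not separate them from resting CD8 T-like cells. It was lower in memory T-like than in NK-like cells, by -1.68 (-2.85 to -0.66) and -1.82 (-3.10 to -0.68) on the log2 scale. Eomes (chromosome 9, 118478212 to 118486132, plus strand) was at 296 and 200 CPM in NK-like cells, at 97.2 and 77.9 CPM in memory T-like cells and between 14.3 and 24.7 CPM in the CD8 T-like clusters. No Eomes UMI was counted in Treg-like or Il17a T-like cells of either library, which allows levels of up to 17.8 and 15.3 CPM and of up to 45.6 and 33.3 CPM (3 counts). The step from NK-like to memory T-like cells was 1.60 and 1.36 on the log2 scale, the step from memory T-like to cycling CD8 T-like cells was 1.98 and 2.09, and both were beyond counting error in both libraries. Tbx21 (chromosome 11, 97098071 to 97115331, minus strand) was spread more evenly. It was at 240 and 248 CPM in NK-like cells, a step of 0.22 (-0.39 to 0.81) and 0.56 (-0.14 to 1.21) over resting CD8 T-like cells, between 138 and 206 CPM in the 3 CD8 T-like clusters, and between 65.2 and 122 CPM in Il17a T-like, memory T-like and Treg-like cells.

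Prdm1, Bhlhe40 and Id2, regulators of effector and tissue states, were highest in Treg-like or Il17a T-like cells. The Il17a T-like cluster had Tnfsf8, Penk and Cd4 as well as Il17a and Trdc among its 10 leading genes, so its cells were mixed. With the lenient filter 13 and 3 cells, led by Cd163l1, took the name and 47 and 74 cells, led by Tnfsf8, had none. Values for its cells with a Cd4 UMI are given below for Bhlhe40. Prdm1 (chromosome 10, 44437177 to 44528501, minus strand) was at 88.9 and 153 CPM in Treg-like cells and at most 60.8 CPM elsewhere. Bhlhe40 (chromosome 6, 108660629 to 108666925, plus strand) was at 1278 and 1834 CPM in Il17a T-like cells and at 903 and 1084 CPM in granzyme CD8 T-like cells. Its other subsets lay between 344 CPM (memory T-like, Lmo7+/+) and 706 CPM (Treg-like, Lmo7+/+). The steps from Il17a T-like to granzyme CD8 T-like cells (0.50 and 0.76, log2) and from there to cycling CD8 T-like cells (0.53 and 0.77) were beyond counting error in both libraries. Id2 (chromosome 12, 25093799 to 25097140, minus strand) was at 1202 and 1100 CPM in Il17a T-like, 967 and 1084 CPM in Treg-like and 942 and 810 CPM in NK-like cells. CD8 T-like clusters held between 616 and 959 CPM, and memory T-like cells stood below all others at 202 and 296 CPM, a step of 1.61 and 1.40 from cycling CD8 T-like cells.

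Id3 (chromosome 4, 136143497 to 136145755, plus strand) could barely be measured in lymphocytes. It had 7 counts in all, of which 1 and 3 were in NK-like cells, and no order of subsets can be read from them. At this depth a low level of Id3 was not detectable.

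For each member the most similar genes over the 14 profiles were looked up among 4820 genes with at least 100 lymphocyte counts, by Pearson r of log2(CPM + 10). Emb led for Tcf7 (r = 0.907), followed by Glul and Elmsan1. The gene nearest to Lef1 was Clk1 (0.94), before Trafd1 and Gpr132, and nearest to Satb1 was Gimap5 (0.876), before Kmt2c and Csnk1e. Tox was nearest to Dgkh (0.891), Adgrg1 and Cd8b1, the beta chain of the CD8 coreceptor. Eomes was nearest to Nrarp (0.958), Car2 and Prdx6, and Tbx21 to Sema6d (0.897), Gzmc and Irf8. Prdm1 was nearest to Mif4gd (0.887), Icos and Ube2l6, Bhlhe40 to Endod1 (0.912), Gpm6b and Myl12a, and Id2 to Pcyt1a (0.891), Tmem135 and Tnfrsf9. The leading gene for Id3, Phkg2, rests on those 7 counts. Dgkh, Cd8b1, Car2 and Nrarp were also among the 10 leading genes of the resting CD8 T-like or NK-like clusters.

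**Figure D2:**
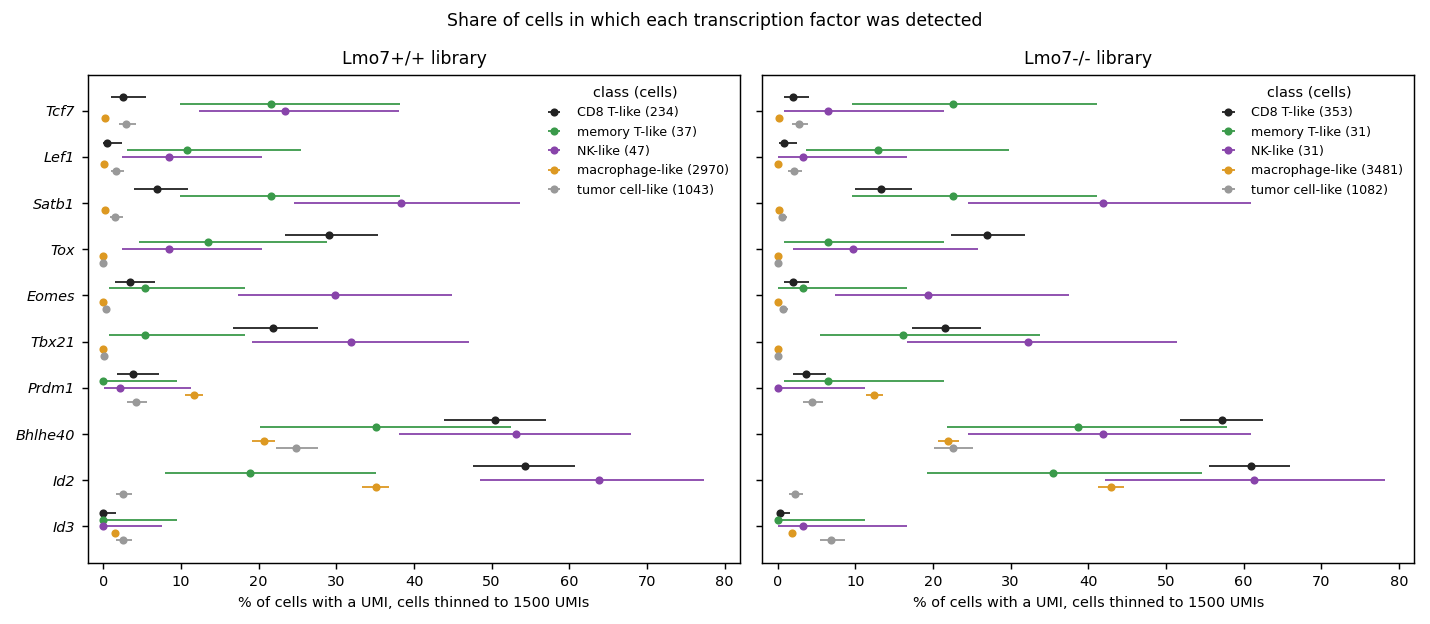
Share of cells with at least 1 UMI of each gene (percent, after each cell was thinned to 1500 UMIs) in 5 cell classes of each library, with exact binomial 95% intervals and the number of cells in the key. Tox was found in 29.1% and 26.9% of CD8 T-like cells and in at most 0.0575% of macrophage-like cells, while Prdm1 and Bhlhe40 were also found in macrophage-like cells.

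Detection was set beside macrophage-like and tumor cell-like cells, which themselves held some of these genes. Every cell had been thinned to 1500 UMIs and shallower cells had been left out. Of the CD8 T-like cells 234 and 353 remained, beside 2970 and 3481 macrophage-like and 1043 and 1082 tumor cell-like cells. In CD8 T-like cells, Tox was found in 29.1% and 26.9%, Tbx21 in 21.8% and 21.5%, Bhlhe40 in 50.4% and 57.2%, and Id2 in 54.3% and 60.9%. Eomes was found in 3.42% and 1.98% of CD8 T-like cells and in 29.8% and 19.4% of NK-like cells. In macrophage-like cells Tox was found in 0% and 0.0575%, and Eomes and Tbx21 in 0 of 2970 and 0 of 3481 cells, which allows shares of up to 0.101% and 0.0862%. Tox, Tbx21 and Eomes were thus at or near 0 in macrophage-like cells, though Eomes had 24 and 34 counts in tumor cell-like cells and Tbx21 11 and 21 counts in dendritic-like cells, whereas Bhlhe40 (20.6% and 22.0% of macrophage-like cells) and Id2 (35.1% and 42.9%) were shared with myeloid cells.

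Tcf7 was found in 2.56% and 1.98% of CD8 T-like cells, in 21.6% and 22.6% of memory T-like cells and in 23.4% and 6.45% of NK-like cells. The same share was 0.202% and 0.201% in macrophage-like cells and 2.97% and 2.77% in tumor cell-like cells. The share in CD8 T-like cells was thus no higher than in tumor cell-like cells, and their tumor cell markers summed to 29.1 and 27.8 CPM. Prdm1 in CD8 T-like cells (3.85% and 3.68%) stood below its share in macrophage-like cells (11.6% and 12.5%), which also hold this gene. Its level in CD8 T-like cells was 22.4 and 23.4 CPM, beside 80.6 and 96.8 CPM in macrophage-like cells. The share in CD8 T-like cells lay above that in macrophage-like cells beyond both binomial intervals in both libraries for 7 of the 10 genes. This count was 6 without thinning and 6 with thinning to 1000 UMIs. The same count was not made over all genes, so it shows nothing particular to these members.

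**Figure D3:**
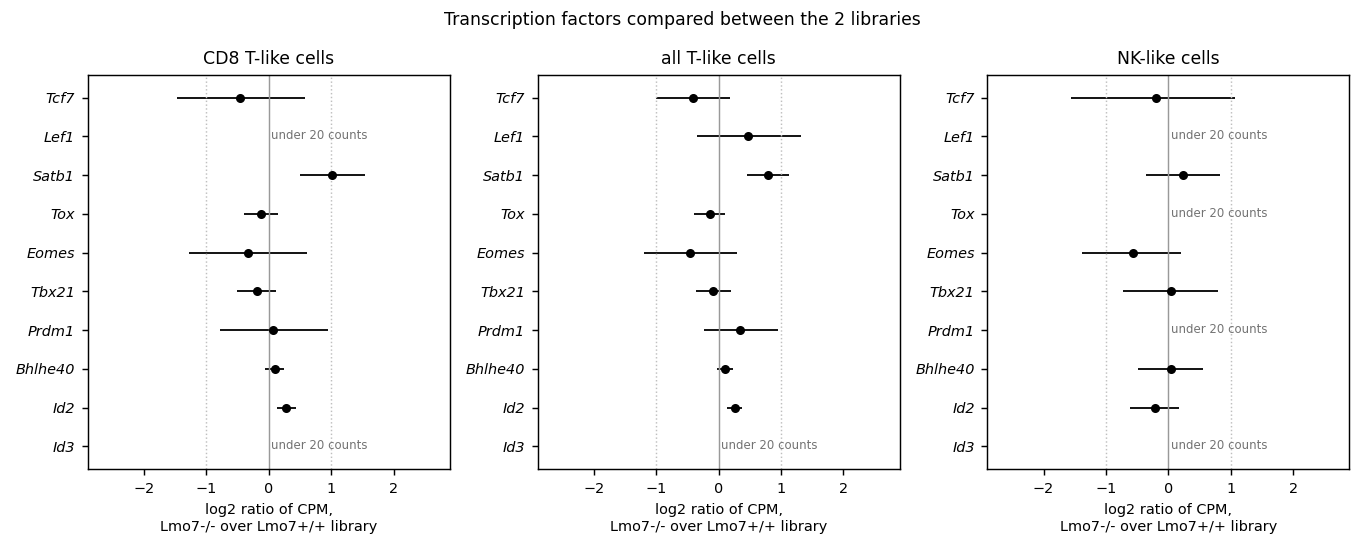
Log2 ratio of CPM, library labelled Lmo7-/- over library labelled Lmo7+/+, for each gene in CD8 T-like, all T-like and NK-like cells. Points are ratios, bars exact 95% intervals for counting error, dotted lines mark 2-fold, and genes under 20 counts carry no point; Satb1 stands at 1.01 in CD8 T-like cells.

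The comparison of hosts asked whether these regulators differed between tumors of Lmo7+/+ and Lmo7-/- mice. In CD8 T-like cells Satb1 was the 1 member past 2-fold, at 48.2 CPM (43 counts) in the library labelled Lmo7+/+ and 97.2 CPM (133 counts) in the library labelled Lmo7-/-. Of the 8105 genes with at least 20 counts, 3.92% were past 2-fold, 1.51% higher and 2.42% lower. The Satb1 ratio was 1.01 (0.51 to 1.54, log2), at the edge of the limit, and 8 of the 10 genes had enough counts to be read. Id2 was higher by 0.28 (0.14 to 0.43), from 672 to 818 CPM, and these were the 2 members whose interval left out 0, as did that of 10.6% of all genes. The median ratio of the members was -0.03 beside -0.06 for all genes.

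Satb1 UMIs were spread over many cells. They were found in 28 of 277 CD8 T-like cells of the library labelled Lmo7+/+ and in 101 of 430 of the library labelled Lmo7-/-. After thinning, the share was 6.84% (16 of 234 cells, 3.96 to 10.9) against 13.3% (47 of 353, 9.95 to 17.3), beside 0.202% and 0.201% in macrophage-like cells. With the cell of most Satb1 UMIs left out in each library the ratio was 1.19. Without the cells whose barcode was in both libraries it was 0.95 in CD8 T-like cells, under the limit of 2-fold, 0.76 over all T-like cells, 1.62 in resting CD8 T-like and 1.33 in Treg-like cells.

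The other members of the CD8 T-like comparison lay near 0 on the log2 scale. Tox, at 219 and 200 CPM, had a ratio of -0.13 (-0.40 to 0.15), Tbx21 of -0.19 (-0.50 to 0.12) and Bhlhe40 of 0.09 (-0.06 to 0.25), so these intervals leave out a 2-fold difference in counting. The intervals of Tcf7 (17 and 19 counts, -0.46, -1.48 to 0.58) and Eomes (19 and 23 counts, -0.34, -1.28 to 0.62) did not. Prdm1 was at 0.06 (-0.79 to 0.95). Lef1, with 3 and 9 counts, and Id3, with 0 and 1, were under the minimum of 20 counts.

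Over all T-like cells 0 of the 9 members with enough counts were past 2-fold, beside 3.44% of 8818 genes. Satb1 was at 82.5 and 143 CPM (0.79, 0.45 to 1.13) and Id2 at 689 and 824 CPM (0.26, 0.14 to 0.38). Tcf7 (-0.41, -1.01 to 0.19), Eomes (-0.45, -1.20 to 0.29), Lef1 (0.46, -0.35 to 1.32) and Prdm1 (0.35, -0.23 to 0.94) had intervals that held 0. The interval left out 0 for 2 of these 9 members and for 11.5% of all genes. The members' median was 0.10 and that of all genes -0.05.

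In NK-like cells 0 of 6 members were past 2-fold, beside 7.67% of 2269 genes. Eomes was at 296 CPM (48 counts) and 200 CPM (21 counts), a ratio of -0.56 (-1.38 to 0.20). Tcf7 was at -0.20 (-1.56 to 1.06) on 16 and 9 counts. Satb1 was at 0.24 (-0.35 to 0.82), Tbx21 at 0.04 (-0.73 to 0.80), Bhlhe40 at 0.03 (-0.49 to 0.55) and Id2 at -0.22 (-0.62 to 0.17). Every interval held 0, with 75 and 48 cells behind the values. The members' median was -0.08 and that of all genes 0.00.

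**Figure D4:**
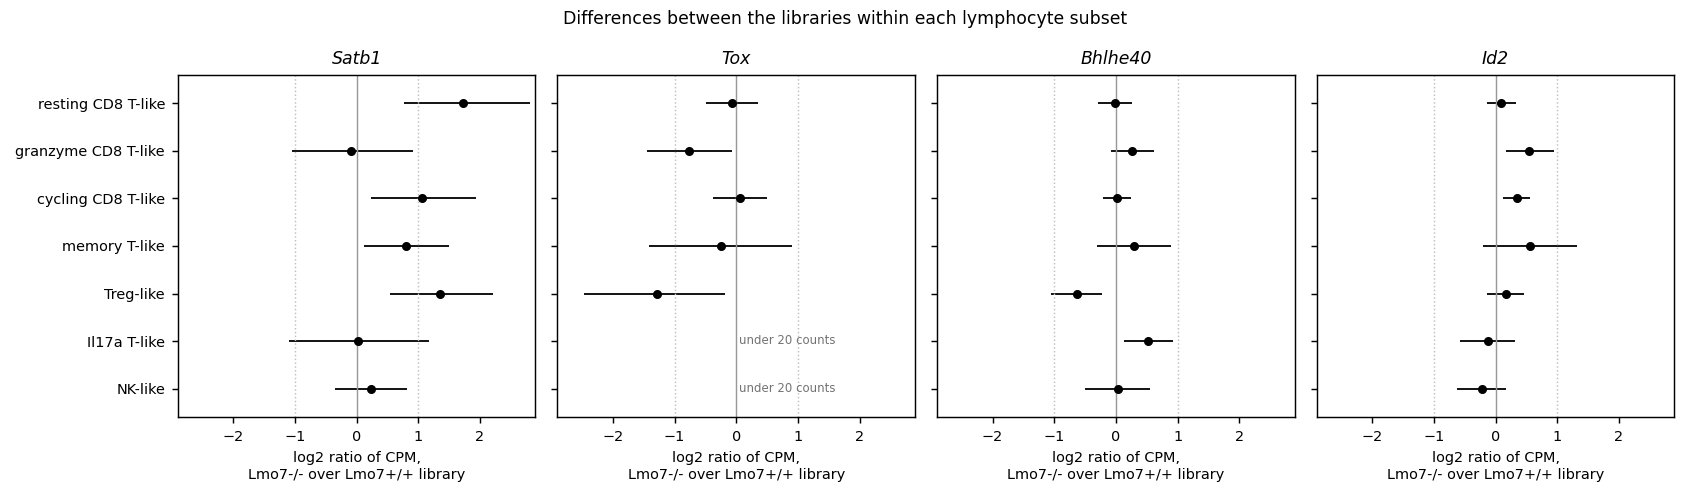
Log2 ratio of CPM, library labelled Lmo7-/- over library labelled Lmo7+/+, of Satb1, Tox, Bhlhe40 and Id2 in each of 7 lymphocyte subsets, with exact 95% intervals for counting error and dotted lines at 2-fold. Satb1 lies at 1.72 in resting CD8 T-like cells and 1.34 in Treg-like cells, and Bhlhe40 at -0.63 in Treg-like and 0.52 in Il17a T-like cells.

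Satb1 was higher in the library labelled Lmo7-/- in 4 of 7 subsets beyond counting error. Over all genes the interval left out 0 for 7.58% in resting, 9.27% in granzyme and 9.16% in cycling CD8 T-like cells, for 8.72% in memory T-like, 8.72% in Treg-like, 12.3% in Il17a T-like and 7.98% in NK-like cells. In resting CD8 T-like cells it had 11 and 53 counts, 32.9 and 109 CPM (1.72, 0.77 to 2.81), where 5.35% of 5343 genes were past 2-fold. In cycling CD8 T-like cells it had 17 and 52 counts (1.05, 0.24 to 1.94, with 5.43% of 6210 genes past 2-fold), and 1 cell held 7 of the 17. In Treg-like cells it had 18 and 53 counts (1.34, 0.55 to 2.20, with 7.22% of 3267 genes past 2-fold), in 14 of 66 and 27 of 77 cells. In memory T-like cells the ratio was 0.80 (0.11 to 1.5, with 7.04% of 2316 genes past 2-fold). The 12 NK cell markers summed to 2228 and 1005 CPM in memory T-like cells (11 and 9 detected), beside 13459 and 10545 CPM in NK-like cells, and their part in the memory T-like values was not tested.

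The granzyme CD8 T-like and Il17a T-like clusters had Satb1 ratios near 0. These were -0.09 (-1.04 to 0.92) and 0.02 (-1.09 to 1.17), and both intervals reach a value near 2-fold. Over the alternatives the Il17a T-like ratio ran from -0.51 to 1.26. The makeup of both clusters differed between the libraries, as given below, and its part in these ratios was not tested. With the top cell of each library left out, Satb1 was at 1.75 in resting CD8 T-like, 1.66 in cycling CD8 T-like, 1.49 in Treg-like and 0.81 in memory T-like cells. Among Treg-like cells with a Cd4 UMI it was at 106 and 359 CPM.

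Tox was lower in the library labelled Lmo7-/- in Treg-like cells, where it had 23 and 11 counts, 136 and 56.3 CPM (-1.28, -2.46 to -0.18). It was found in 14 of 66 and 9 of 77 of these cells. In granzyme CD8 T-like cells, where 8.25% of 2848 genes were past 2-fold, Tox had 35 and 41 counts (-0.76, -1.45 to -0.07). Without the top cell of each library the first ratio was -1.35, and the second was -0.63 with an interval that held 0 (-1.38 to 0.13). Over the alternatives it ran from -0.82 to -0.16. Gzmg and Ccr7 were both among the leading genes of this subset. At a finer clustering (resolution 1.5) the name went to a Gzmg-led cluster of 8 and 42 cells with Tox at 141 and 176 CPM, and a Ccr7-led cluster of 36 and 45 cells with Tox at 332 and 250 CPM counted as resting CD8 T-like, so the libraries differed in their share of these cells. Its part in the Tox ratio was not tested. In resting (-0.07) and cycling (0.06) CD8 T-like cells the interval held 0.

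Bhlhe40 differed in opposite directions in Treg-like and Il17a T-like cells. In Treg-like cells it was at 706 CPM (119 counts) and 455 CPM (89 counts), a ratio of -0.63 (-1.05 to -0.22). In Il17a T-like cells, where 12.0% of 1420 genes were past 2-fold, it was at 1278 CPM (84 counts) and 1834 CPM (165 counts), a ratio of 0.52 (0.13 to 0.92). The makeup of the Il17a T-like cluster also differed, as 10 of 31 against 2 of 33 cells had a Trdc or gamma chain constant UMI with no Cd4 or Cd8 UMI. Il17a was at 928 and 122 CPM in that cluster and Trdc at 624 and 44.5 CPM. Among its cells with a Cd4 UMI (17 and 25), Bhlhe40 was at 1506 and 2059 CPM.

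Id2 was higher in granzyme CD8 T-like cells (74 and 215 counts, 0.55, 0.16 to 0.95) and in cycling ones (274 and 511 counts, 0.34, 0.13 to 0.56) of the library labelled Lmo7-/-. Id2 in granzyme CD8 T-like cells is read beside the same unequal shares, with Id2 at 1213 and 1370 CPM in the Gzmg-led cluster (8 and 42 cells) and at 453 and 574 CPM in the Ccr7-led cluster, and it ran from 0.15 to 0.74 over the alternatives. In resting CD8 T-like cells it was at 753 and 805 CPM (0.10, -0.14 to 0.33). Memory T-like cells had 27 and 38 counts (0.55, -0.20 to 1.32). Prdm1 in Treg-like cells had 15 and 30 counts (0.79, -0.15 to 1.79).

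Other values moved between the libraries beside these. In CD8 T-like cells 4 of 15 genes of a dissociation stress list were at least 2-fold lower in the library labelled Lmo7-/- and 0 higher, with a list median of -0.30. Hspa1a, a heat shock gene, was at 163 and 50.4 CPM and Hspa1b at 154 and 70.9 CPM, while Ier3 and Atf3 were at 0.01 and 0.02. The list summed to 5332 and 4367 CPM there, 4943 and 3763 CPM in memory T-like and 5283 and 4776 CPM in Treg-like cells. The 10 macrophage markers summed to 239 and 182 CPM in CD8 T-like, 267 and 205 CPM in Treg-like and 389 and 444 CPM in memory T-like cells, against 20545 and 25517 CPM in macrophage-like cells, and the 6 B cell markers were at 0 in CD8 T-like cells. The part of these in the ratios above was not tested.

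Gene programs of T cell states were read from lists in CD8 T-like cells. Of 11 measurable genes of the naive and memory program, 0 were at least 2-fold higher and 2 were at least 2-fold lower in the library labelled Lmo7-/- (list median -0.08, all genes -0.06). Those were Dapl1 (30.3 to 13.2 CPM) and Igfbp4 (54.9 to 24.1 CPM), whereas Il7r, the interleukin-7 receptor, was at 93.0 and 171 CPM (0.88, 0.51 to 1.26) and Bach2 at 0.43. Of 12 checkpoint and exhaustion genes 0 were past 2-fold, with a median of 0.15. Havcr2 (TIM-3) was at 84.1 and 129 CPM and Cxcr6, a receptor of resident T cells, at 336 and 499 CPM, while Tigit (-0.50) and Cd160 (-0.45) had intervals that held 0.

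Of 14 effector genes 2 were at least 2-fold higher and 0 lower, with a median of 0.25. Gzma, a granzyme, was at 26.9 and 150 CPM (2.48, 1.86 to 3.15) and the chemokine Ccl3 at 90.8 and 184 CPM (1.02, 0.65 to 1.40). Gzmk was lower (52.7 and 32.2 CPM) and Klrk1 was at -0.02. The 15 proliferation genes had a median of 0.01, with 0 past 2-fold, from -0.48 for Mki67 and -0.37 for Mcm3 to 0.23 for Ube2c and 0.31 for Cdk1. Of 30 other T cell transcription factors 0 were past 2-fold and the median was -0.01. The lowest were Klf2 (-0.98, -2.10 to 0.11) and Ikzf2 (Helios, 234 and 126 CPM, -0.90, -1.20 to -0.60), and the highest were Bach2 and Runx1 (0.38, -1.02 to 1.93).

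Over all T-like cells the list medians were -0.15 for the naive and memory program, 0.28 for checkpoint genes, 0.18 for effector genes and -0.07 for other factors, beside -0.05 for all genes. The cytotoxic protease Gzmb was at 1233 and 2226 CPM there (0.85, 0.77 to 0.94). In NK-like cells Ccl5 was at 2981 and 1162 CPM (-1.36, -1.66 to -1.07) and Gzma at 6597 and 3363 CPM (-0.97, -1.15 to -0.80). Among the other factors in NK-like cells, 2 of 18 were at least 2-fold higher, beside 3.35% of all genes. These were Klf2 (73.9 and 181 CPM) and Nr4a1 (252 and 648 CPM), a gene induced by receptor stimulation.

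Cells with a Tcf7 UMI were set beside cells without one, after thinning to 1500 UMIs. In CD8 T-like cells only 6 of 234 and 7 of 353 had such a UMI, so these values describe few cells. Their summed naive and memory program was higher by 0.75 (0.12 to 1.32, log2) in the library labelled Lmo7+/+ and by 1.94 (1.53 to 2.33) in the library labelled Lmo7-/-, where Xcl1 alone differed by 3.21. The effector program differed by -0.64 (-1.22 to -0.11) and -0.99 (-1.5 to -0.53), and the checkpoint program by -0.16 and 0.17 with intervals that held 0. Of these 6 intervals, 4 left out 0 after thinning. Without thinning, where 12 and 13 cells had a Tcf7 UMI, 6 did, those of the checkpoint program included.

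Over all T-like cells 17 cells of each library had a Tcf7 UMI after thinning. They differed from the other T-like cells by 0.66 (0.30 to 1.00) and 1.23 (0.91 to 1.52) in the naive and memory program, by -0.58 and -0.98 in the effector program, and by -2.83 and -3.15 in Gzmb. Id2 was lower in them by -1.90 (-3.53 to -0.66) and -0.89 (-1.85 to -0.08). Lef1 was found in 3 of the 17 in each library (17.6%), against 1.90% and 1.14% of the T-like cells with no Tcf7 UMI. Memory T-like cells hold many of these cells, and the comparison over all T-like cells includes that difference between clusters.

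Cells with a Tox UMI had less Gzmb than the rest of the CD8 T-like cells in both libraries, by -0.49 (-0.87 to -0.12) and -0.81 (-1.04 to -0.59), with 68 and 95 such cells. Their checkpoint program differed by -0.01 and 0.09. Satb1 UMIs were found in 2 of 68 and 8 of 95 CD8 T-like cells with a Tox UMI (2.94%, 0.358 to 10.2, and 8.42%, 3.71 to 15.9), against 8.43% (4.69 to 13.7) and 15.1% (11 to 20.1) of those with none, so the intervals overlapped in both libraries.

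At a finer clustering the CD8 T-like cells gave a cluster led by Ccr7, Cd160, Nrn1 and Xcl1 (36 and 45 cells), a chemokine and receptor profile, with Tcf7 at 30.2 and 102 CPM on 3 and 11 counts. Its Tox was at 332 and 250 CPM, its Satb1 at 151 and 148 CPM and its Bhlhe40 at 997 and 1278 CPM. A second cluster, led by the granzymes Gzmg, Gzme, Gzmd and Gzmf, held 8 and 42 cells. It had 0 Tcf7 counts in both libraries, Id2 at 1213 and 1370 CPM, Tox at 141 and 176 CPM and Gzmb at 3837 and 4497 CPM. Ccr7 and Nrn1 as well as these 4 granzymes were among the 10 leading genes of the granzyme CD8 T-like cluster of the coarser clustering.

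Outside the lymphocytes, Id3 differed past 2-fold between the libraries in tumor cell-like cells and Id2 in fibroblast-like cells. Id3, an inhibitor of E proteins and a target of BMP signalling, was at 20.9 CPM (216 counts) in tumor cell-like cells of the library labelled Lmo7+/+ and at 57.9 CPM (728 counts) in those of the library labelled Lmo7-/-, a log2 ratio of 1.47 (1.25 to 1.70), where 6.23% of 12337 genes were past 2-fold. It was found in 2.49% and 6.93% of these cells after thinning to 1500 UMIs. This class is 1 collagen-rich cluster (1215 and 1191 cells, led by Enpp2 and Serpine2), and 4 clusters with no name (6866 and 4650 cells in all) are not in it. Joined, those clusters had Id3 at 4.42 and 5.31 CPM (0.27, -0.01 to 0.54), and singly from -0.59 (-1.16 to -0.05) to 0.99 (0.11 to 1.91). Id3 was at 0.97 (0.41 to 1.55) in the Malat1-led and 0.99 in the Ctxn1-led cluster, and at -0.01 in the Car9-led one. The ratio was thus past 2-fold in the named cluster alone, and some of the unnamed clusters went the same way. With the lenient filter the name went to another cluster of 2120 and 1673 cells, led by Gm26917, with a median of 966 UMIs. Its ratio was 1.02 with an interval from -0.01 to 2.06. The Enpp2-led cluster (827 and 596 cells) was then unnamed, and Id3 was not measured in it. Tcf7 and Lef1 were at 19.0 and 17.9 CPM and at 10.9 and 12.0 CPM in the tumor cell-like cluster of the chosen filter. In fibroblast-like cells Id2 was at 57.1 and 170 CPM (1.58, 1.01 to 2.17) and Id3 at 184 and 321 CPM, where 8.06% of 6774 genes were past 2-fold. Each comparison is of 1 library with 1 library, and the tumor cell-like cells differed in depth, with medians of 5569 and 8360 UMIs.

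In dendritic-like cells Tbx21 was at 8.37 and 23.0 CPM (1.46, 0.34 to 2.66, with 4.44% of 7950 genes past 2-fold). Macrophage-like cells held Id2 at 360 and 485 CPM, Prdm1 at 80.6 and 96.8 CPM and Bhlhe40 at 168 and 181 CPM, and 0 of the 6 measurable members were past 2-fold there, beside 2.81% of 12077 genes. Endothelial-like cells held Prdm1 at 216 and 162 CPM and Id3 at 255 and 307 CPM. A cluster of 90 and 125 cells with both lymphocyte and macrophage genes, kept out of all T cell values above, held Tox at 55.6 and 27.9 CPM (-1.0, -1.80 to -0.22, with 5.17% of 7389 genes past 2-fold) and Satb1 at 34.6 and 55.8 CPM.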

How the data were processed

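The deposited values were raw UMI counts per gene and droplet, with 1 matrix for each of 2 libraries (Lmo7+/+ and Lmo7-/-), and the genotype was taken from the labels. The submitters' processing notes name Cell Ranger 2.1.1 and mm10, while the matrix headers written by the authors' software give version 3.0.0, and barcodes have 24 bases. Droplets entered when they had 500 genes and 1000 UMIs or more and no more than 15% of UMIs from mitochondrial genes. Counts were scaled to 10000 and logged, and clustered with scikit-learn 1.9.0 and the Louvain method of igraph 0.11.9. Settings were 2000 variable genes with the 10 genes left out, 30 principal components and 20 neighbours. The resolution was 0.5 for all cells and 1 within lymphocytes. Clusters were named from markers, and the limits on marker scores were set after the data were seen. Doublets called by Scrublet in scanpy 1.11.5 (2.82% and 2.37% of cells, 0.775% and 0.149% of named lymphocytes) were kept.

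Counts were summed by class and library and given as CPM. Ratios needed at least 20 counts over both libraries, and a gene was called past 2-fold at an absolute log2 ratio of 1. Clopper-Pearson, binomial and Poisson 95% intervals came from scipy 1.17.1. Where 1 library had 0 counts, 3 counts set the floor. Shares used cells thinned to 1500 UMIs. The scripts were tested on simulated data. The members and lists were chosen with earlier results of these data known. Genes named beside the members were the 3 most similar to each member, the highest and lowest of each list (up to 4) and markers, and Gzmb, Ccr7, Xcl1, Il17a and Trdc were added after their values were seen. Positions are from the GRCm38 annotation and upstream sequence from RefSeq. The alternatives were other cell filters, resolutions, classes taken by UMIs, thinning, no doublets, no cells with macrophage UMIs, no shared barcodes, other count minimums and TMM scaling (edgeR 4.0.16).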

Additional observations from a re-analysis of the deposited data

Results flagged for a closer look

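Bhlhe40 moved in opposite directions between the libraries in a pair of T cell subsets. Its log2 ratio, library labelled Lmo7-/- over library labelled Lmo7+/+, was 0.52 (0.13 to 0.92) in Il17a T-like cells and -0.63 (-1.05 to -0.22) in Treg-like cells. Each genotype has 1 library, so the difference between these ratios was not tested. Among cells with a Cd4 UMI and no Cd8a or Cd8b1 UMI, Bhlhe40 was at 1506 and 2059 CPM in the Il17a T-like cluster (17 and 25 cells) and at 754 and 447 CPM in the Treg-like cluster (31 and 44 cells).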

How the results depend on the processing

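No paired analysis was possible because each genotype has 1 library and no result comes from a test. The count of 1 member past 2-fold in CD8 T-like cells (Satb1) stayed 1 under 12 of 14 alternatives. It was 0 at lymphocyte resolution 1.5, where Satb1 was at 0.98, and 0 with cells of a shared barcode left out, an alternative chosen after seeing the data, where Satb1 was at 0.95. Over all T-like cells the count of 0 became 1 (Satb1) with the lenient filter, the strict filter, classes taken by UMIs and thinning to 1500 UMIs. In NK-like cells the count of 0 became 1 (Eomes) with the strict filter and with classes taken by UMIs. The Satb1 ratio ran from 0.95 to 1.55 in CD8 T-like, 0.64 to 1.32 in all T-like and -0.45 to 0.70 in NK-like cells. Within subsets, under alternatives also chosen after seeing the data, it ran from 0.93 to 1.86 in resting CD8 T-like, 1.0 to 2.68 in cycling CD8 T-like, 0.92 to 1.75 in Treg-like and -0.16 to 0.99 in granzyme CD8 T-like cells. In memory T-like cells it ran from 0.5 to 0.99 and in Il17a T-like cells from -0.51 to 1.26. Tox in Treg-like cells ran from -1.35 to -1.14, Bhlhe40 from -0.63 to -0.31 in Treg-like and 0.14 to 0.65 in Il17a T-like cells, and Id2 in granzyme CD8 T-like cells from 0.15 to 0.74. The Eomes ratio ran from -0.70 to 0.55 in all T-like cells and Tcf7 from -1.0 to -0.04 in CD8 T-like cells. The members' median kept within -0.17 to 0.24 (CD8 T-like), 0.01 to 0.23 (all T-like) and -0.23 to 0.29 (NK-like). The number of members with the same highest subset in both libraries was 6 to 9 beside 8. The named peak itself was lost more often. Bhlhe40 left Il17a T-like cells under 3 of 11 alternatives, in each of which that cluster was under 20 cells in a library. Id2 left them under 6, of which 3 kept the cluster. Tcf7 left memory T-like cells under 3, with 2 of them short of that cluster and thinning to 1500 UMIs the other. Id2 in fibroblast-like cells ran from 1.37 to 1.56 beside 1.58 and Tbx21 in dendritic-like cells from 1.45 to 1.79, while no tumor cell-like cluster was named under the strict filter, without doublets or with the members kept. TMM scaling shifted all ratios by 0.09 in CD8 T-like, 0.09 in all T-like and -0.10 in NK-like cells. The cause of these changes was not tested. Depth limits Lef1 and Id3 in CD8 T-like cells, which had 12 counts and 1 count over both libraries, and every statement on genotype, which rests on 1 library each.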
